A study of Mus musculus with 62 samples.

Results

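The libraries described here come from white fat of mock-injected mice, followed from week 2 to week 8 of a melanoma cachexia time course. The comparison sets the 5 mock libraries of week 8 against the 5 mock libraries of week 2, which are 10 of the 62 libraries of the series. The 5 mock libraries of week 4 and the 5 of week 6 serve as intermediate points, so 20 mock libraries enter in all. The labels and series record give female mice, 2 months old when injected, and those described here were injected as mock, with no further detail given. Libraries from mice given melanoma cells that do not cause wasting (NCAC, 5 at each of weeks 2, 4, 6 and 8) were used as a second series over the same weeks, and those of mice given cachexia-causing melanoma cells (CAC, 5 at week 2 and 7 at week 8) only for 1 difference between arms. Arm, week and replicate number come from each sample's description, since the treatment tag reads cachectic melanoma cells throughout, mock included. The series record names NCI Ath/nude mice and the sample tags name C57BL6/J, and the conflict was not resolved here. The labels give no fat depot and no body or fat weight, and they call the replicates biological without saying whether the 4 weeks were collected side by side.

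White fat stores energy as triglyceride in large adipocytes. It makes part of that lipid itself, through fatty acid synthesis, and makes cholesterol through a separate route that starts from the same acetyl-CoA; both routes are switched on by the SREBP transcription factors and respond to feeding and insulin. The tissue also holds blood vessels, fibroblasts, mesothelium, macrophages and lymphocytes, and antibody-secreting plasma cells are known to gather in it with age. In bulk tissue, fewer cells of a type and less RNA per cell cannot be told apart.

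No single gene passed the unweighted test between week 2 and week 8. limma on log2(TPM + 1), with Benjamini-Hochberg adjustment over 14576 genes, called 0 genes higher and 0 lower (0% in each direction), and the smallest adjusted p was 0.517. With library weights, which gave week-2 replicate 4 a weight of 15.8 and week-8 replicate 2 one of 0.197, the same comparison called 355 genes (264 higher, 91 lower). At an unadjusted p under 0.05, 406 genes (2.79%) were higher and 158 (1.08%) were lower at week 8. The 5 week-8 libraries lay wholly above the 5 week-2 libraries for 55 genes (0.377%) and wholly below them for 26 (0.178%). The 95% interval of the difference lay within 2-fold either way for 11196 genes (76.8%), and 364 genes had a fitted difference of at least 1 log2 unit upward against 19 downward. A weekly slope over all 20 mock libraries also called 0 genes (697 at an unadjusted p under 0.05, 3.44% of genes upward and 1.34% downward). Neither did the single steps call a gene: at an unadjusted p under 0.05, week 4 against 2 had 314 (1.45% upward, 0.7% downward), week 6 against 4 had 185 (0.727% and 0.542%) and week 8 against 6 had 78 (0.274% and 0.261%).

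The direction over all genes was uneven. The median difference was 0.16 log2 units and 11260 of 14576 genes had a positive one, while rescaling each library to the median ratio brought the median to -0.00 and left 7210 positive and 7366 negative. Differences are therefore read below against a shift of 0.16. Mitochondrially encoded genes took 27.1% to 42.0% of the TPM of the week-2 libraries and 20.1% to 41.8% at week 8, and 11994 to 14395 symbols reached 1 TPM in a mock library. Adiponectin (Adipoq), a hormone that marks adipocytes, stood at 2579, 5269, 4765, 5124 and 3461 TPM at week 2 and at 5904, 1789, 2443, 5282 and 2649 TPM at week 8. Both groups hold the transcriptome of fat, and week-8 replicate 2 was the lowest library for this gene.

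Of 17 genes on the cholesterol synthesis list, 15 had a negative difference in week 8 against week 2 with a median of -0.50, against 0.16 over all genes, and 0 were called. At an unadjusted p under 0.05, 8 were lower and 1 was higher, and the week-8 libraries of 1 member, Nsdhl, lay below all of week 2. In the NCAC libraries, which share no sample with the mock ones, 16 of the 17 were lower at week 8 than at week 2, with a median of -0.41 against 0.11 over all genes; there too 0 of all genes were called (3.6% higher and 1.27% lower at an unadjusted p under 0.05). After median-ratio rescaling 16 of the 17 mock differences were negative. By step, the median of the 17 mock genes was -0.42 for week 4 against 2, -0.04 for week 6 against 4 and -0.02 for week 8 against 6, against 0.04, 0.02 and 0.07 over all genes. The mean log2 level of the list was 5.31 ± 0.086 at week 2, 4.97 ± 0.21 at week 4, 4.97 ± 0.15 at week 6 and 4.93 ± 0.27 at week 8 (SD, n = 5 each), so the lower level was already there at week 4.

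Nsdhl, a sterol dehydrogenase that acts late in cholesterol synthesis (chromosome X, 72918557 to 72958514, mm10), is the clearest single case. It stood at 84.3, 80.5, 67.3, 83.0 and 88.3 TPM at week 2 and at 41.1, 43.3, 65.0, 48.1 and 43.1 TPM at week 8. The groups did not overlap, and 4 of the 5 week-8 libraries were under 50 TPM. Only 65.0 TPM, in week-8 replicate 3, against 67.3 TPM parted the groups. The intermediate libraries ran from 54.7 to 61.6 TPM at week 4 and from 31.9 to 62.3 TPM at week 6. The log2 difference was -0.75 (SE 0.15), with a limma unadjusted p of 0.00031 and an adjusted p of 0.789. In NCAC fat the gene went from 56.0 to 88.6 TPM at week 2 to 33.0 to 72.1 TPM at week 8, a difference of -0.55 (SE 0.23).

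Other members behaved alike in size. Fdps, which makes farnesyl diphosphate, the branch point of the pathway, stood at 113, 81.1, 98.7, 74.0 and 100.1 TPM at week 2 and at 41.6, 56.1, 93.8, 49.96 and 57.9 TPM at week 8 (difference -0.67, SE 0.21). Dhcr7, the enzyme of the last step to cholesterol, stood at 41.7, 28.0, 31.5, 25.8 and 19.7 TPM and then at 13.8, 19.7, 16.2, 17.8 and 16.1 TPM (-0.75, SE 0.19). Week-8 replicate 3 was the high exception for Fdps, and the 2 Dhcr7 groups met only at their edges. Cyp51, Mvd, Sc5d, Lss and Idi1, further enzymes of the route, had differences of -0.72, -0.70, -0.59, -0.55 and -0.53.

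Nsdhl, Lss, Sc5d and Fdps are the 4 sterol genes called on the slope described further on, and the upstream sequence of the first 3 is shown for that reason. Each line is the 250 bases before the RefSeq start on the gene's strand (GRCm38.p6), and capitals mark CCAAT or its reverse complement ATTGG, the box bound by NF-Y beside SREBP sites in many sterol genes.
Nsdhl (chrX:72918271-72918520): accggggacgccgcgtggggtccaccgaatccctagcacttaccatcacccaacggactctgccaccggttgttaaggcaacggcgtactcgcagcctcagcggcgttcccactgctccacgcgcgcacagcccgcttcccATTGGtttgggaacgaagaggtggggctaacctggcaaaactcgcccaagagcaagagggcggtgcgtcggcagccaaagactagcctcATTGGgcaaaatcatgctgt
Lss (chr10:76531355-76531604): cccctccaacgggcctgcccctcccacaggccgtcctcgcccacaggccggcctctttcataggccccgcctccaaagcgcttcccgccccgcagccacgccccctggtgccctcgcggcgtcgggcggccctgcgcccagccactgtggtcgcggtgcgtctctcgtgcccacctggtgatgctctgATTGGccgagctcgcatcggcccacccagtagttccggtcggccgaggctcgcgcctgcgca
Sc5d (chr9:42264301-42264550): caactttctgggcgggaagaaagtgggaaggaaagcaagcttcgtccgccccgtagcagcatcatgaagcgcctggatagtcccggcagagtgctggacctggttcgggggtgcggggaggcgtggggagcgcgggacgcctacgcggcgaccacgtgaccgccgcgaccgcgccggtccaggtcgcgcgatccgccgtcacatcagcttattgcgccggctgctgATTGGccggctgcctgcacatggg

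All 4 boxes shown read ATTGG on the gene's strand, and they begin 109 and 20 bases before the Nsdhl start, 62 before the Lss start and 24 before the Sc5d start. The promoter table matched 11 of the 17 sterol genes. Of these, 10 of the 11 (90.9%) held CCAAT on either strand in the 250 bases, against 34.5% of 27025 genes. Dhcr7 was the matched sterol gene without it, and Fdps was not among the matched genes. Hmgcs1 was the 1 of the 11 with the sterol element core TCACNCCAC on either strand, which 1.04% of all genes held. For the fatty acid synthesis list, 6 of 13 matched genes (46.2%) held CCAAT. These matches describe letters in a window and not binding.

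The fatty acid synthesis list had 14 of 16 negative differences, a median of -0.55 and 8 genes lower at an unadjusted p under 0.05, with 0 called. In NCAC fat 13 of 16 were lower (median -0.52). Me1, malic enzyme, which supplies NADPH for lipid synthesis, stood at 2189, 1615, 2491, 2217 and 3168 TPM at week 2 and at 768, 1058, 2520, 1159 and 739 TPM at week 8 (-1.03, SE 0.33). Acly, which makes cytosolic acetyl-CoA from citrate, stood at 2354, 1345, 1454, 1509 and 2081 TPM and then at 421, 722, 2051, 812 and 571 TPM (-1.13, SE 0.37). In both genes 4 of the 5 week-8 libraries lay below every week-2 library and replicate 3 did not.

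Fatty acid synthase itself overlapped. Fasn stood at 4268, 3533, 3588, 4773 and 5144 TPM at week 2 and at 1826, 2198, 5133, 2977 and 2410 TPM at week 8 (-0.63, SE 0.28), with replicate 3 again high. Scd1, the main fat desaturase, went from 10854 to 16584 TPM at week 2 to 6385 to 13337 TPM at week 8 (-0.33, SE 0.26), and its sign turned with library weights (0.12). Its relative Scd2 was at -0.82 (SE 0.29), Thrsp, a lipogenic nuclear protein, at -0.87 (SE 0.34), Acaca, acetyl-CoA carboxylase, at -0.76 (SE 0.28) and Slc25a1, the citrate carrier, at -0.66 (SE 0.29). Srebf1, which encodes an SREBP, was at -0.46 (SE 0.22).

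Week-8 replicate 3 was also the highest week-8 library for Ucp1, the uncoupling protein of heat-producing adipocytes. Ucp1 stood at 56.3, 107, 4.94, 2.08 and 919 TPM at week 2 and at 3.21, 150.4, 2046, 75.3 and 1610 TPM at week 8 (2.12, SE 1.87). The spread within each week exceeded the difference between weeks. All 15 thermogenic genes had positive differences (median 1.17), 0 were called or non-overlapping, and in NCAC fat 13 of 15 were negative. Slc27a2, a fatty acid transporter on that list, was at 1.63 (SE 0.91). The part of thermogenic cell content in the lipid results was not tested.

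The triglyceride synthesis list had 7 of 9 negative differences (median -0.31, NCAC median -0.04), with 0 called and 1, Dgat2, lower at an unadjusted p under 0.05. Pnpla3 and Mogat2, which act on the same lipids, are not on that list; Pnpla3 is named by the rule on non-overlapping genes, and Mogat2 was picked after its values were seen. Pnpla3, a lipid-droplet protein of the patatin family (chromosome 15, 84167837 to 84187236), stood at 369, 329.8, 338, 317 and 309.7 TPM at week 2. At week 8 it stood at 235, 146, 203, 159 and 133 TPM. No week-8 library reached the lowest week-2 library, and the difference was -0.95 (SE 0.17, unadjusted p 0.00016, adjusted p 0.789, limma). Week 4 ran from 180 to 298 TPM and week 6 from 73.5 to 277 TPM, both below every week-2 library and overlapping week 8.

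Dgat2, the main enzyme of the last triglyceride step (chromosome 7, 99153658 to 99182719), stood at 1647, 2107, 1556, 1734 and 1980 TPM at week 2 and at 1058, 617, 1516, 1114 and 1058 TPM at week 8 (-0.80, SE 0.23). The groups did not overlap, although only 1516 against 1556 TPM parted them. Mogat2, monoacylglycerol acyltransferase (chromosome 7, 99219084 to 99238619), stood at 48.4, 33.9, 25.9, 38.2 and 40.1 TPM and then at 18.6, 7.66, 29.97, 13.2 and 9.82 TPM (-1.31, SE 0.31), with week-8 replicate 3 inside the week-2 range.

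**Figure D1:**
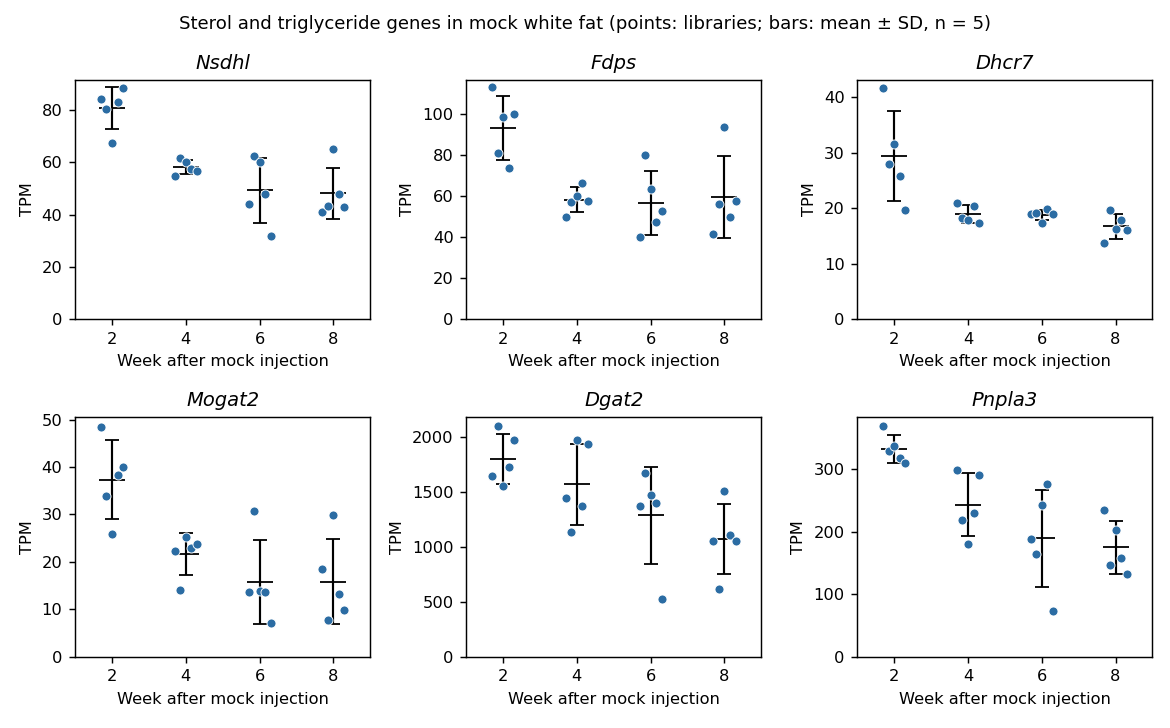
TPM of 6 sterol and triglyceride genes (vertical axes, linear from 0) in each mock library by week after injection (horizontal axis), with the mean and SD of 5 libraries as black bars. Nsdhl, Dgat2 and Pnpla3 do not overlap between weeks 2 and 8, and for Nsdhl, Fdps, Mogat2 and Dgat2 week-8 replicate 3 is the highest week-8 library.

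Adipocyte identity genes leaned the same way more weakly. Of 16, 15 were negative (median -0.32, 0 called) and 2 were lower at an unadjusted p under 0.05, led by Retn, the adipokine resistin (-0.79, SE 0.28). Here and below, the gene said to lead a list is its member of smallest unadjusted p, not of largest difference. In NCAC fat the median of the 16 identity genes was 0.01. Lipolysis genes had a median of -0.10, with Pnpla2, the main triglyceride lipase, at -0.04 (SE 0.23). Lep, the satiety hormone made in proportion to fat stores, stood at 182, 359, 161, 196 and 171 TPM at week 2 and at 460, 49.7, 69.2, 175 and 73.2 TPM at week 8 (-0.81, SE 0.53). Its week-8 libraries spanned a wider range than those of week 2 on both sides. The fat expansion list was split, 4 positive and 5 negative, and Mest, its imprinted marker, was at -0.55 (SE 0.74).

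Antibody transcripts were higher at week 8, with 0 called. Immunoglobulin genes were grouped after their values were seen: of 396 symbols 101 were tested, 96 had positive differences, 55 were higher at an unadjusted p under 0.05, 15 lay wholly above week 2 and 0 wholly below, against 0.377% and 0.178% of all genes. The median difference of the 101 was 1.05. Testing required a mean of 0.5 TPM over the 62 libraries, so some of the 101 may have entered only through libraries where they are high. The 348 variable segments summed to 19.4 to 45.4 TPM at week 2 and to 76.7 to 1109 TPM at week 8. All members come from the same libraries, so these counts are not independent support. The summed level of the 396 symbols was 164, 167, 104, 89.6 and 111 TPM at week 2 and 2510, 1088, 1189, 215 and 305 TPM at week 8. Every week-8 library was above every week-2 library, and the week-8 libraries themselves were widely spread. Weeks 4 and 6 ran from 177 to 865 and from 36.4 to 2363 TPM, so the intermediate libraries did not form a steady climb.

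Jchain, the protein that joins antibody units into polymers (chromosome 5, 88519809 to 88527891), stood at 2.25, 0.498, 1.16, 0.959 and 2.50 TPM at week 2 and at 43.8, 22.0, 22.7, 3.00 and 7.96 TPM at week 8 (2.71, SE 0.57, unadjusted p 0.00055, adjusted p 0.789, limma). Igkc, the kappa light-chain constant gene (chromosome 6, 70726435 to 70726966), stood at 41.0, 18.6, 20.6, 17.2 and 28.6 TPM and then at 826, 249.7, 372, 51.4 and 70.8 TPM (2.98, SE 0.66). Neither gene overlapped between the weeks. The 4 IgG heavy-chain constant genes together stood at 9.05, 0, 4.68, 0.0544 and 0.124 TPM at week 2 and at 320, 163, 89.6, 23.1 and 27.2 TPM at week 8. Ighm, the IgM constant gene, overlapped widely, at 37.6 to 108 TPM and 32.3 to 196 TPM (0.62, SE 0.49).

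Single antibody genes carry sequence shared with their relatives, and the counting method is not given in the sources used here, so values of Ighg3 (4.02), Ighg2b (2.24), Iglc2 (1.75) and Igkv4-91 (2.42) are uncertain one by one. For Ighg3, replicate 5 of week 8 (0.107 TPM) passed the highest week-2 library (0.103 TPM) by a margin near 0. On the plasma cell list 5 of 6 genes were positive (median 1.08, 0 called), with Mzb1, a chaperone of antibody assembly, at 0.99 (SE 0.36) and the plasma cell receptor Tnfrsf17 at -0.14 (SE 0.22). The mean log2 level of that list was 1.35 to 1.71 at week 2 and 2.11 to 3.73 at week 8, with an exact two-sided permutation p of 0.0079, the smallest that 5 against 5 allows, and 0.175 after adjustment over the 22 values tested.

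In NCAC fat the immunoglobulin median was 0.17, with 66 of 101 genes higher. Igkc in NCAC fat ran from 23.4 to 135 TPM at week 2 and from 16.3 to 143 TPM at week 8 (0.04, SE 0.58). The NCAC change minus the mock change was -2.94 for Igkc and -3.00 for Jchain, with unadjusted p of 0.0058 and 0.0024 and an adjusted p of 1.00 for each, and over all genes 0 were called on that difference (182 at an unadjusted p under 0.05, 0.439% upward and 0.81% downward). Against CAC, whose week-8 minus week-2 difference was set against that of mock, 5 genes (0.0343%) were called higher and 3 (0.0206%) lower, none of them an immunoglobulin gene. That count of 8 was 4 with no filter on low values, 0 at a mean of 5 TPM, and 4 to 68 leaving out 1 library (68 without CAC week-8 replicate 3).

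**Figure D2:**
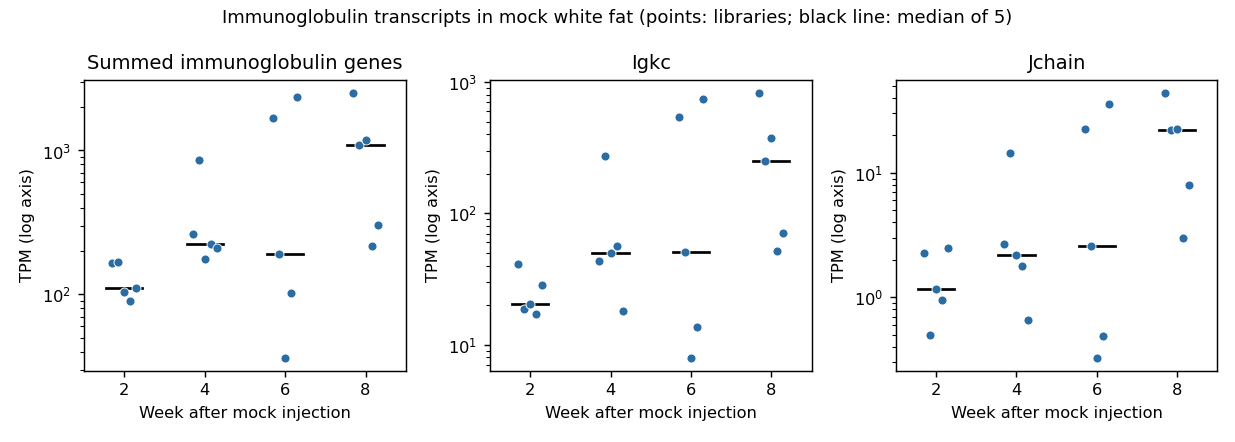
TPM on a log axis for the sum of 396 immunoglobulin symbols, for Igkc and for Jchain in each mock library by week after injection, with the median of 5 libraries as a black line. Week-8 libraries all lie above week-2 libraries, and week 4 has 1 library well above its others. In the sum, the lowest week-6 library (36.4 TPM) lies below the week-2 range, beside 2 at 1671 and 2363 TPM.

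Other lymphocyte markers were low. The B cell list had 8 of 8 positive differences (median 0.52, 0 called), and the NCAC median was 0.59. T cell genes had 5 of 5 positive (median 0.66), led by Trac, the alpha T cell receptor constant gene, which stood at 5.58, 0.402, 0.275, 0.252 and 0.537 TPM at week 2 and at 4.81, 5.85, 1.37, 2.76 and 2.59 TPM at week 8 (1.16, SE 0.47). Cd3e, a subunit of the same receptor, was under the filter on low values, at 0 to 0.0716 TPM at week 2 and 0 to 3.51 TPM at week 8. NK cell genes had a median of -0.03, with Gzma, a killer-cell granzyme, at -0.68 (SE 0.24), and neutrophil genes one of 0.07 (-0.06 after median-ratio rescaling), with Retnlg at 0.35 (SE 0.32). Week-8 replicate 1 was the highest week-8 library for the summed B cell, T cell and plasma cell lists.

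Red-cell genes differed in sign: 4 of 5 were negative (median -0.93, 0 called) and 1 was positive. Hba-a2, an alpha-globin gene (chromosome 11, 32296489 to 32297298), stood at 140.2, 253, 269, 72.0 and 93.2 TPM at week 2 and at 657, 469, 475, 355 and 499 TPM at week 8 (1.72, SE 0.36). Hba-a1, its near-identical neighbour, stood at 3039, 4760, 552, 1560 and 2042 TPM and then at 1332, 899, 921, 710.1 and 375 TPM (-1.29, SE 0.53). Their sum was 820.3 to 5013 TPM at week 2 and 874 to 1988 TPM at week 8, which overlap. Reads of the pair cannot be told apart with a counting method that is not known, so neither value stands alone, and the beta-globin Hbb-bs was at -0.93 (SE 0.40).

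Collagen and matrix genes had 24 of 26 positive differences (median 0.77, 0 called), yet Col1a1, the main fibrillar collagen, stood at 971, 118, 40.6, 70.7 and 50.4 TPM at week 2 and at 128, 1548, 166, 112 and 459 TPM at week 8 (1.32, SE 0.93). One library of each week was far above the rest. Col3a1 was at 0.52 (SE 0.57), Thbs1, a matrix glycoprotein, at 1.96 (SE 0.81), and the NCAC median of the list was 0.03. Pericyte and smooth muscle markers were split, with 6 of 10 positive and 4 negative (median 1.89). They summed to 10133, 586, 419.8, 502 and 995 TPM at week 2 and to 865, 14888, 3803, 1683 and 5484 TPM at week 8. Cnn1, a contractile protein, had the smallest p of that list (3.55, SE 1.63). The part of these markers in the matrix result was not tested.

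Week-8 replicate 2 held the highest proliferation level of the 20 mock libraries, and week-6 replicate 5 the next. Mki67, a marker of dividing cells, stood at 7.60, 1.88, 3.13, 1.13 and 1.51 TPM at week 2 and at 3.74, 19.4, 1.30, 1.31 and 5.21 TPM at week 8 (0.51, SE 0.59). All 18 proliferation genes had positive differences (median 0.40), with 0 at an unadjusted p under 0.05, and Pcna, the replication clamp, had the smallest p (0.29, SE 0.22). Without week-8 replicate 2 the week 8 against week 2 comparison again called 0 genes.

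**Figure D3:**
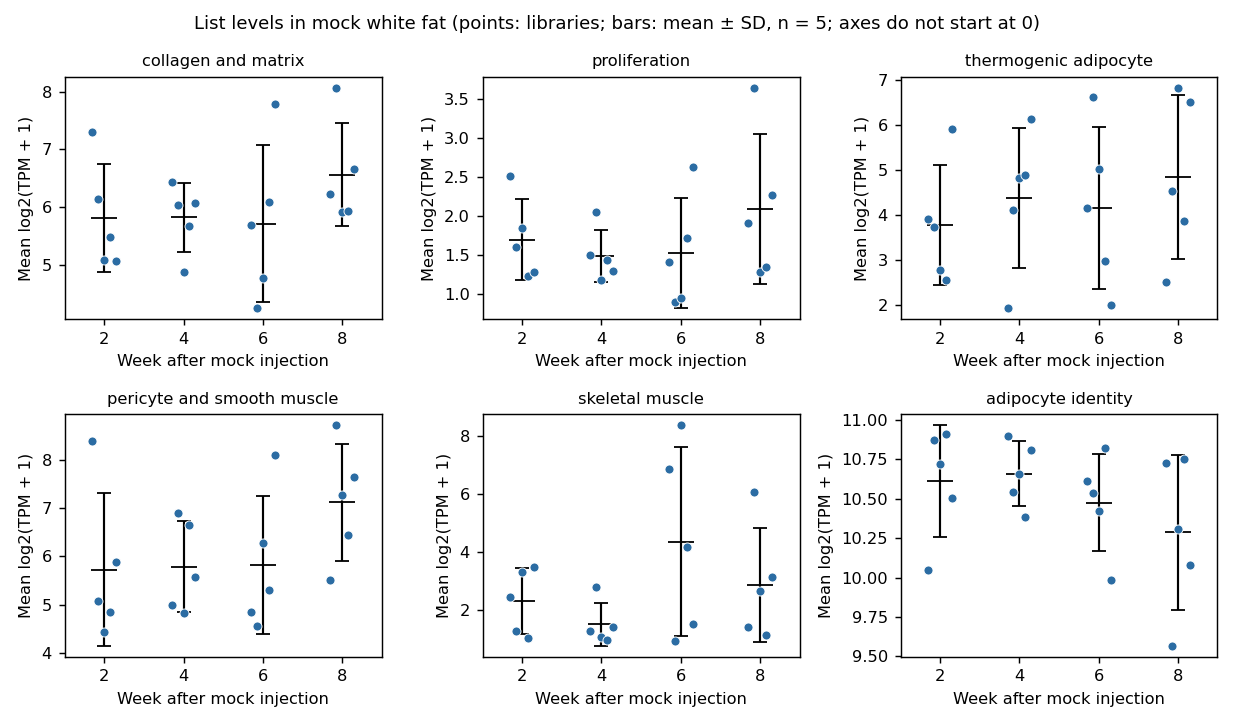
Mean log2(TPM + 1) over the tested members of 6 lists in each mock library by week after injection, with mean and SD of 5 libraries as black bars; the axes do not start at 0. Single libraries stand far from their group, such as week-8 replicate 2 in proliferation and collagen, and week-2 replicate 1 in pericyte and smooth muscle.

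Among other cell-type lists, macrophage genes had 14 of 14 positive differences (median 0.49), with Lyve1, a receptor of tissue macrophages and lymphatics, at 1.14 (SE 0.60) and the pan-macrophage gene Adgre1 at 0.27 (SE 0.36). Lipid-associated macrophage genes were 10 of 10 positive (0.50), and Lipa, lysosomal acid lipase, had the smallest unadjusted p (0.33, SE 0.14). Mesothelial genes were 8 of 8 positive (0.86), led by Gpm6a (1.03, SE 0.38), and were 8 of 8 positive in NCAC fat (0.57). Lymphatic genes were 7 of 7 positive (0.87), with the chemokine Ccl21a at 4.12 (SE 1.54), whose near copies make its value uncertain, and 7 of 7 in NCAC fat (0.48). Fibroblast genes were 12 of 12 positive (0.39), led by Pi16 (0.41, SE 0.29), Schwann cell genes 6 of 6 (0.24), and eosinophil and mast cell genes 6 of 7 (0.59), led by Mcpt4 (0.70, SE 0.52). Over all genes 77.3% were positive. After median-ratio rescaling the fibroblast and Schwann medians were 0.20 (10 of 12 positive) and 0.11 (5 of 6 positive). Endothelial genes had 3 of 10 positive (-0.11), with Eng, an endothelial receptor, at 0.31 (SE 0.21). None of these was called, and no adjusted p from the exact permutation tests, run on 21 marker-list levels and the mitochondrially encoded share of TPM, was under 0.05 (the smallest was that of the plasma cell list).

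Markers of other tissues were found in some libraries, and where these transcripts came from was not tested. Urothelial markers (7 of 7 positive, median 0.50, NCAC -0.85) summed to 3.37 to 77.4 TPM at week 2 and to 9.99 to 139 TPM at week 8, with Upk1b, a bladder-lining protein, at 0.82 (SE 0.47). Glandular epithelium was at a median of 1.03, led by the keratin Krt8 (1.57, SE 0.74), and skeletal muscle markers at 0.60, led by Acta1 (0.96, SE 0.82), with sums up to 159.7 TPM at week 2 and 1116 TPM at week 8. The intermediate weeks held higher sums, up to 451 TPM of urothelial markers at week 4 and 4985 TPM of skeletal muscle markers at week 6. For week 6 against week 4 the medians of these 2 lists were -1.28 and 3.03. The melanocyte list had 2 tested members (median -0.26), and Dct was at -0.47 (SE 0.19), with sums of 1.96 to 3.98 TPM at week 2. Ovary and uterus genes had a median of 0.40, with Star, a steroid-making gene, at 0.67 (SE 0.39), and liver, pancreas and gut genes one of -0.41, with Alb, the liver's albumin, at -0.94 (SE 0.36). The fit without the 1 week-8 library over 100 TPM of urothelial markers called 0 genes.

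Stress and signalling lists were mostly positive, as were 77.3% of all genes in mock fat and 70.8% in NCAC fat. Chemokines had 13 of 13 positive differences (median 0.63) and 5 higher at an unadjusted p under 0.05, led by Ccl7 (1.48, SE 0.48), while the NCAC median was 0.08. Immediate early genes were 13 of 13 positive (0.69), led by Nr4a1 (1.16, SE 0.46), with an NCAC median of -0.04. Unfolded protein response genes were 14 of 15 positive (0.27, NCAC median 0.05), led by Sdf2l1 (0.90, SE 0.37). MHC class II genes were 7 of 7 positive (0.40, NCAC median -0.07), led by H2-Eb1 (0.58, SE 0.27). After median-ratio rescaling the mock medians of these 2 lists were 0.08 and 0.21. Glucocorticoid response genes had a median of 0.23 (0.05 after median-ratio rescaling). Among them, the metallothionein Mt2, which resembles its relatives, was at 1.00 (SE 0.37) and Fkbp5, a steroid receptor cochaperone, at 0.22 (SE 0.40). Acute phase genes split 11 to 7 (median 0.36), and Orm1, an acute phase plasma protein, lay below week 2 in every week-8 library, at 704 to 1018 TPM and then 344 to 679.9 TPM (-0.72, SE 0.23).

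Growth and energy lists had no called gene. The IGF axis had a median of 0.37, with the growth hormone feedback gene Socs2 at 1.34 (SE 0.59) and Igf1 at 0.55 (SE 0.38). Ribosomal protein genes were 18 of 18 positive (0.32) and 18 of 18 in NCAC fat (0.29). After median-ratio rescaling their mock median was 0.13, with 18 of 18 positive. Nuclear respiratory chain genes had a median of -0.06, led by Cycs (-0.27, SE 0.22), and mitochondrially encoded mRNAs one of -0.07, with mt-Atp8 at 0.84 (SE 0.27). Fatty acid oxidation (0.11, Cpt1a 0.54, SE 0.33), clock (0.11, Per2 0.68, SE 0.37) and imprinted genes (0.16, H19 0.73, SE 0.68) lay at or under the shift and changed sign after median-ratio rescaling (-0.08, -0.02 and -0.01). Interferon genes stood at -0.08, with Bst2 at 0.84 (SE 0.58), senescence-linked genes at 0.28, with the cell cycle inhibitor Cdkn2b at -0.55 (SE 0.19), and sex steroid response genes at 0.43, with Hsd11b1, which regenerates active glucocorticoid, at -0.70 (SE 0.23).

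**Figure D4:**
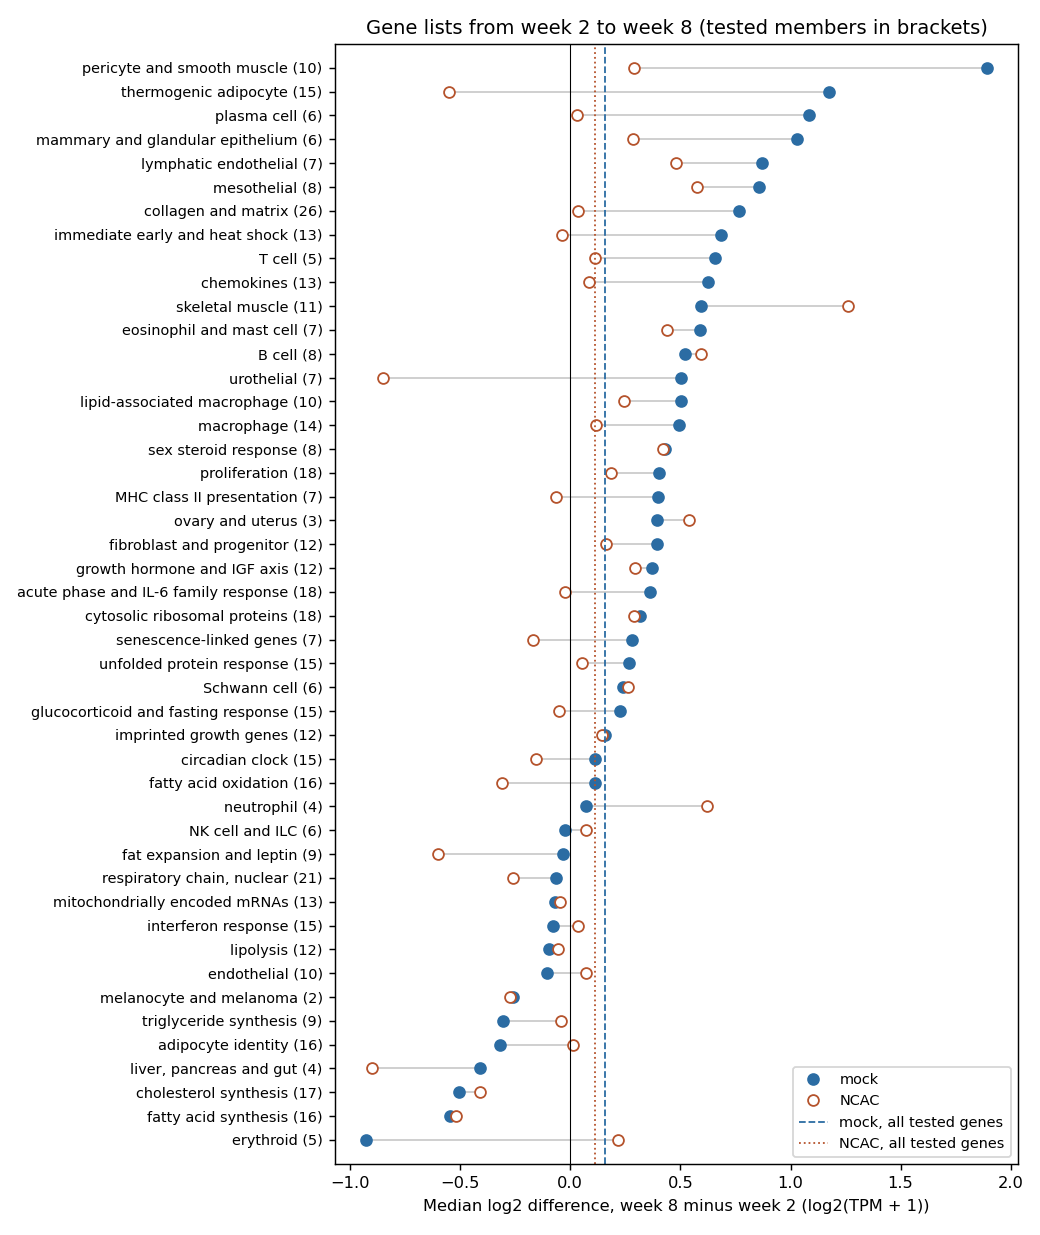
Median log2 difference of week 8 minus week 2 (horizontal axis) for 46 gene lists, each with its number of tested members, in mock (filled) and NCAC libraries (open), with dashed and dotted lines at the medians of all tested genes. Fatty acid and cholesterol synthesis lie between -0.55 and -0.41 in both arms. The pericyte and smooth muscle, thermogenic and plasma cell lists have mock medians of 1.89, 1.17 and 1.08 and NCAC medians of 0.29, -0.55 and 0.03.

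Week 6 against week 4, and week 8 against week 2 in NCAC fat, share no library with the mock comparison and were read for direction. Of the 55 genes whose week-8 libraries lay above week 2, 48 (87.3%) were also higher at week 6 than at week 4, against 55.2% of all genes, and 40 (72.7%) were higher in NCAC fat at week 8 than at week 2, against 70.8%. Of the 26 genes that lay below, 23 (88.5%) were lower at week 6 than at week 4, against 44.8%, and 26 of 26 were lower in NCAC fat, against 29.2%. Group means ran in order over all 4 weeks for 28 of the 55 (against 16.5% of all genes rising in order) and for 18 of the 26 (against 2.9% falling in order), a count that shares libraries with the choice of genes. The lower genes include, besides Nsdhl, Pnpla3, Dgat2 and Orm1, Adap1, a GTPase-activating protein (-1.05, SE 0.23), Ptges, prostaglandin E synthase (-0.76, SE 0.20), Als2cl (-0.78, SE 0.21), Phlda3, a p53 target (-0.54, SE 0.15), Trub2 (-0.49, SE 0.14), Tlcd1 (-0.49, SE 0.15) and Mrap, the accessory protein of the ACTH receptor (-0.62, SE 0.18). Higher ones outside the antibody and globin genes include Fam208a, a subunit of the HUSH silencing complex (0.63, SE 0.17), Btaf1, which acts on TBP (0.40, SE 0.15), and the repair polymerase Polb (0.34, SE 0.12).

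The 20 mock and 20 NCAC libraries were then fitted with 1 weekly slope and a term for arm, an analysis added after the data were seen. It called 51 genes (0.35%), of which 25 (0.172%) rose and 26 (0.178%) fell. All had the same sign of slope in each arm alone, which the choice of genes on the joint slope favours. A difference in slope between the arms was called for 0 genes (148 at an unadjusted p under 0.05, limma). The fit gave 0 calls in each arm alone, and NCAC mice carried melanoma cells, so the slope is not one of untreated mice only. After median-ratio rescaling 189 genes rose and 183 fell, with 43 of the 51 among them, and without mitochondrially encoded genes 396 rose and 87 fell. Leaving out 1 library gave 12 calls (without NCAC week-8 replicate 1) to 183 (without NCAC week-2 replicate 4), and leaving out both mock week-8 replicate 2 and week-6 replicate 5 gave 15. In all 40 of those single-library fits 10 of the 51 genes stayed called.

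Those 10 were 7 that fell and 3 that rose. Mogat2 fell by 0.22 log2 units per week (SE 0.042, adjusted p 0.014, limma) and Nsdhl by 0.12 (SE 0.024, adjusted p 0.020, limma). Adap1 fell by 0.16, from 39.3, 30.3, 26.6, 33.3 and 33.0 TPM in mock week 2 to 17.9, 10.6, 23.4, 17.7 and 9.88 TPM in mock week 8. Odf3l1, Tmem120b, Aamdc and Dera, a deoxyribose-phosphate aldolase, fell by 0.19, 0.13, 0.083 and 0.077. Lnpep, the aminopeptidase that travels with the GLUT4 glucose carrier (chromosome 17, 17521410 to 17625050), rose by 0.24 per week (SE 0.044, adjusted p 0.014, limma). It stood at 9.498, 4.12, 3.52, 6.71 and 13.0 TPM in mock week 2 and at 18.8, 18.3, 12.5, 15.4 and 18.4 TPM in mock week 8, which overlap by 1 library. Lcor, a nuclear receptor corepressor, and Fam208a rose by 0.13 and 0.10.

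Among the other called genes, Fdps, Lss and Sc5d fell by 0.12, 0.099 and 0.097 per week, which with Nsdhl makes 4 of the 17 sterol genes (0.178% of all genes fell on that slope), and Dgat2, Pnpla3 and Scd2 fell by 0.14, 0.16 and 0.14. A fitted slope does not show even steps, and the sterol list in mock fat had its lower level by week 4. Slc25a10, the dicarboxylate carrier, fell by 0.13, from 324 to 514 TPM in mock week 2 to 142 to 348 TPM in mock week 8. Phlda3, Ptger3, a prostaglandin receptor, Cdkn2b and Mrap fell by 0.11, 0.097, 0.11 and 0.099. Malat1, a nuclear noncoding RNA, and Fbxo21, a ubiquitin ligase subunit, rose by 0.16 and 0.13. Sc5d was called in 12 of the 40 single-library fits, Pnpla3 in 20, Lss in 31, Fdps in 34 and Dgat2 in 36.

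**Figure D5:**
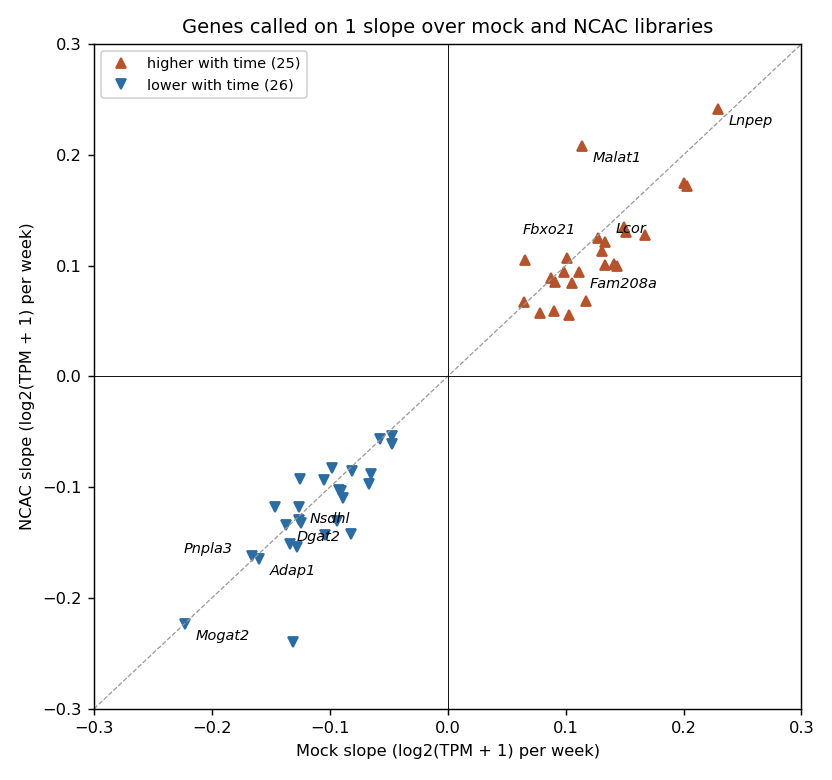
Weekly slope in mock (horizontal axis) and NCAC libraries (vertical axis), both in log2(TPM + 1) per week, for the 51 genes called on 1 slope over both arms; the dashed line marks equal slopes. Every point has the same sign on both axes, and mock slopes run from Mogat2, the lowest, to Lnpep, the highest, which the choice of genes on the joint slope favours.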

How the data were processed

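White fat RNA was extracted with Trizol and sequenced from stranded TruSeq mRNA libraries, per the labels' protocols. The submitters' processing notes name the build mm10. The authors deposited 1 table of TPM for 47643 symbols, each library summing to 1000000; the sources used here give no aligner, counter or annotation, so read depth is unknown, and no counting interval is given. Values were analysed as log2(TPM + 1) with limma 3.58.1 (R 4.3.3; trended, robust variance; Benjamini-Hochberg threshold 0.05) over 14577 genes whose average across all 62 libraries reached 0.5 TPM; the scripts were checked on simulated data. Fold values of low genes are understated by the pseudocount of 1. Replicate numbers were not treated as pairs in the main fits. Same-number correlations between weeks 2 and 8 ran from -0.54 to 0.51 (median 0.13), and those of other numbers from -0.52 to 0.73 (median -0.13). These overlapping ranges cannot settle whether samples of 1 number share a batch. Named genes were the non-overlapping genes of smallest p (up to 10 each way), the smallest p of each of 46 lists, and fixed markers; genes of the sterol, fatty acid, immunoglobulin and slope groups beyond these were picked after values were seen. Some genes that this rule names are not reported here. Members and lists were chosen with earlier results of these data known. Gene positions are from GENCODE M21, and promoters from RefSeq (GRCm38.p6). The limma p-values set a difference against the spread between these samples. The permutation p-values rank the observed difference among all regroupings of the same libraries.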

Additional observations from a re-analysis of the deposited data

Results flagged for a closer look

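Among 80 groups of 5 mock libraries (20 genes by 4 weeks), 7 held a library far from the other 4; chance flags about 1 in 20. These were Dgat2 at week 6 (replicate 5, 528 TPM, lowest), Mogat2 at week 4 (replicate 2, 14.03 TPM, lowest), Scd1 at week 4 (replicate 5, 16646 TPM, highest) and at week 8 (replicate 2, 6385 TPM, lowest). They also include Hba-a2 at week 4 (replicate 5, 1792 TPM, highest), Lep at week 2 (replicate 2, 359 TPM, highest) and Col1a1 at week 4 (replicate 3, 40.4 TPM, lowest).

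The week 8 minus week 2 difference in CAC fat departed from that in mock fat for 8 genes (limma, adjusted p under 0.05; 0.0343% of genes upward and 0.0206% downward). The count was 4 with no filter on low values, 0 at a mean of 5 TPM, and 4 to 68 leaving out 1 library (68 without CAC week-8 replicate 3). Itih4, Serpina3m and Fetub, plasma protein genes of which Serpina3m has near-identical relatives, had a higher difference in CAC than in mock, by 5.41, 4.24 and 3.29 log2 units; that of Serpina3m in mock was negative (4.81 ± 1.59 to 2.58 ± 0.952 TPM, SD, n = 5 each). Itih4 stood at 4.25 ± 1.77 TPM in mock week 2 and 5.62 ± 1.86 TPM in mock week 8 (SD, n = 5 each), and at 27.5 ± 31.8 (SD, n = 5) and 895 ± 427 TPM (SD, n = 7) in CAC. Hsd11b1 (2.60) and Tekt1 (1.58) also had a higher difference in CAC, while both had negative differences in mock fat (-0.70 and -0.59). Lyz1 (-2.61), Ccdc36 (-1.85) and Usp50 (-1.72) had a lower difference in CAC, where their means went from 31.1 to 3.95, from 3.25 to 0.23 and from 2.98 to 0.285 TPM. In mock fat these 3 genes had differences of -0.03, 0.08 and 0.07, and Ccdc36 and Usp50 were already low at week 2, with means of 0.166 and 0.502 TPM.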

How the results depend on the processing

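Week 8 against week 2 called 0 genes under every alternative run except library weights, which called 355 (264 higher, 91 lower) and gave week-2 replicate 4 a weight of 15.8 and week-8 replicate 2 one of 0.197; with the replicate block it called 0 (1236 at an unadjusted p under 0.05). The 4 other within-mock results and the NCAC difference called 0 under each alternative, leaving out 1 library included (lowest 0, highest 0), except that the mock slope gave 51 calls once NCAC libraries were added. That slope called 26 with no filter, 372 rescaled, 483 without mitochondrial genes, 34 with the replicate block, 15 without the 2 mock libraries that stand apart, and 12 to 183 leaving out 1 library. The CAC difference (8) called 4 with no filter, 0 at a mean of 5 TPM, and 4 to 68 leaving out 1 library (68 without CAC week-8 replicate 3). Of 2469 gene values of week 8 against week 2 under other settings, 42 were called, all under library weights, and 18 turned sign. With NCAC added, Per2 was at -0.11 and Fkbp5 at -0.41. With library weights Scd1 was at 0.12, Adgre1 at -0.022, Itih4 at -0.092, Fetub at -0.029 and Lyz1 at 0.075; rescaled, Fetub was at -0.017; without the urothelial library Lyz1 was at 0.15. Leaving out 1 library turned Pnpla2 (-0.12 to 0.14), Lyz1 (-0.20 to 0.23), Fkbp5 (-0.0026 to 0.54), Mest (-0.95 to 0.097) and Tnfrsf17 (-0.28 to 0.022). The cause was not tested.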
